A study of Mus musculus with 13 samples.

Results

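A set of 10 genes of cardiac calcium cycling, Atp2a2, Pln, Sln, Ryr2, Casq1, Casq2, Jph2, Slc8a1, Trdn and Hrc, was described in mouse hearts after myocardial infarction (MI). They were chosen by name, as a list, and are 10 of the 36172 gene rows of the count table, in which each was found. RNA of left ventricle outside the ischaemic zone was sequenced in 13 libraries from C57BL/6JO1aHsd mice aged 8 to 10 weeks when treatment began. In 5 libraries (MI+FG-3149) the left anterior descending artery had been ligated permanently and the animals received FG-3149, a mouse monoclonal antibody against connective tissue growth factor, at 10 mg/kg. In 5 others (MI+IgG) the same ligation was followed by an IgG antibody, also at 10 mg/kg. In the remaining 3 (Sham) the animals had sham surgery and no treatment, so the comparison of MI+IgG with Sham holds ligation and antibody together. All groups carry the same time label, 1W+6W, which the labels do not spell out.

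In a heart muscle cell, calcium that enters through the surface membrane opens ryanodine receptors in the sarcoplasmic reticulum (SR), and the calcium released from the SR drives contraction. Relaxation follows when the SERCA pump returns calcium to the SR and the sodium-calcium exchanger carries the rest out of the cell. Phospholamban and sarcolipin are small membrane peptides that restrain the pump, calsequestrin and the histidine-rich calcium binding protein hold calcium in the SR lumen, and triadin and junctophilin keep the release site in place.

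The libraries held 10954922 to 12794823 estimated counts with MI+FG-3149, 13084735 to 17567238 with MI+IgG and 12025880 to 14999813 in Sham. The summed level of 12 structural cardiomyocyte genes had medians of 74500, 71890 and 73510 CPM (counts scaled to library totals) in MI+FG-3149, MI+IgG and Sham, over ranges that overlapped between all groups. The summed fibroblast list of 8 genes ranged from 1828 to 2271 CPM with MI+FG-3149, from 2139 to 3183 with MI+IgG and from 1276 to 1358 in Sham. The summed macrophage list of 7 genes ranged from 302.5 to 479.3 CPM with MI+FG-3149, from 280.4 to 454.2 with MI+IgG and from 217.3 to 218.9 in Sham. These bulk libraries cannot tell fewer cells of a type from less RNA per cell. The summed endothelial list of 6 genes ranged from 966.5 to 1063 CPM with MI+FG-3149 and from 896.1 to 1187 with MI+IgG, against 1173 to 1292 in Sham. The summed smooth muscle list of 6 genes ranged from 285.6 to 322.3 CPM with MI+FG-3149 and from 268.6 to 299.8 with MI+IgG, against 313.2 to 326.7 in Sham, with Acta2 at 0 in all libraries. The genes of this list did not move together. Smtn, the largest part of the sum, had 151.2 to 160.1 CPM with MI+FG-3149 and 130.6 to 155.2 with MI+IgG, against 181.9 to 192.7 in Sham. Tagln and Cnn1 lay higher in every infarcted library than in every sham library, and Myh11 and Myocd overlapped Sham. The parts of these cell types in the results below were not tested.

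The sequences that the results turn on are the coding sequence of Pln, the alternative coding ends of Atp2a2 and a pair of coding stretches of Jph2, all read 5′ to 3′ from GENCODE M21 transcripts on GRCm38. Pln encodes phospholamban in a single exon, and the capitals mark codons 16 and 17, the serine and threonine whose phosphorylation relieves the pump. The SERCA2a and SERCA2b ends are shown because they are the bases that separate the heart-enriched pump from the widely expressed one, and their capitals mark the stop codon. The Jph2 stretches are shown because their exons differed between the antibody groups by unequal amounts, and their capitals mark runs of 6 or more G or C.
Pln coding sequence, chr10:53343864-53344022, plus strand: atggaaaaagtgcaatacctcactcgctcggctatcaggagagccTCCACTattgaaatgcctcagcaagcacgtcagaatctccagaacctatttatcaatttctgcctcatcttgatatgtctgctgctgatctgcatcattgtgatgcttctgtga
Atp2a2 SERCA2a-specific coding end, chr5:122454291-122454304, minus strand: caatactggagTAA
Atp2a2 SERCA2b-specific coding end, chr5:122457151-122457302, minus strand: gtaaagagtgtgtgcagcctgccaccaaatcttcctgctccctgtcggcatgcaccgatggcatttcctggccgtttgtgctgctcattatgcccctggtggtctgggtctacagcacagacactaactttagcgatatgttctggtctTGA
Jph2 GC-rich coding exon, its opening 240 bases, chr2:163339733-163339972, minus strand: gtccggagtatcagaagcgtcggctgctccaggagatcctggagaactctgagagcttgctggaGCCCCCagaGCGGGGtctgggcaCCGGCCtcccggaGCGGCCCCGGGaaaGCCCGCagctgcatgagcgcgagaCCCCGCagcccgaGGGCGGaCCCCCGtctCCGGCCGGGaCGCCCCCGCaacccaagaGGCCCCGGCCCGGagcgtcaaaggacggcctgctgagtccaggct
Jph2 shorter coding exon, its 81 coding bases, chr2:163338619-163338699, minus strand: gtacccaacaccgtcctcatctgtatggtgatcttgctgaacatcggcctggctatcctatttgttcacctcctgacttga
The Jph2 stretch of 240 bases is 72.1% G or C and holds 11 such runs, while the 81 bases are 49.4% G or C and hold 0.

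The SR pump and its main peptide brake were both lower after infarction, and neither was called different between the antibodies. Atp2a2, which encodes the SERCA2 pump (chr5:122453513-122502225, minus strand, mm10), stood at 14560, 14450, 16150, 14930 and 16090 CPM in the MI+FG-3149 hearts. Its level was 14790, 13150, 13970, 13360 and 13900 CPM in the MI+IgG hearts, against 19620, 20730 and 18790 CPM in Sham. Every infarcted heart lay below every sham heart, and the antibody groups overlapped through MI+IgG replicate 1. On the log2 scale Atp2a2 fell by 0.51 ± 0.06 (SE) in MI+IgG against Sham (edgeR quasi-likelihood test, Benjamini-Hochberg adjusted p = 4.00e-06) and by 0.37 ± 0.06 in MI+FG-3149 against Sham (edgeR, adjusted p = 0.000154). Between MI+FG-3149 and MI+IgG the log2 fold change was 0.14, with a 95% interval of 0.04 to 0.24 and an edgeR adjusted p of 0.218. Along the gene the difference from Sham was not even. Exon 1 gave a log2 ratio to Sham of 2.21 with MI+FG-3149 and 0.17 with MI+IgG, and exon 4 gave 0.09 and -0.26. The terminal exon gave -0.67 and -0.73, beside medians over 23 exons of -0.37 and -0.47.

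Pln (chr10:53337686-53345999, plus strand) had 5809, 5614, 5975, 5157 and 5564 CPM with MI+FG-3149. It had 6581, 5077, 5820, 5371 and 5514 CPM with MI+IgG, against 9794, 8663 and 7898 CPM in Sham. The lowest sham heart was above the highest infarcted heart, and the antibody groups lay within the same range. Pln fell by 0.63 ± 0.08 (SE, log2) in MI+IgG against Sham (edgeR adjusted p = 1.12e-05) and by 0.64 ± 0.08 in MI+FG-3149 against Sham (edgeR adjusted p = 2.07e-05). For MI+FG-3149 against MI+IgG the log2 fold change was -0.01, with a 95% interval of -0.15 to 0.12. Nearly all Pln reads came from exon 3, which holds the coding sequence printed above, with a mean of 85140 counts per library against 1064 in exon 1 and 234 in exon 2. In exon 1 the ratio of MI+FG-3149 to MI+IgG was 1.46 on the log2 scale with no overlap, while exon 3 gave -0.04.

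The ratio of Pln to Atp2a2 counts within a library, which does not depend on library scaling, ran from 0.345 to 0.399 with MI+FG-3149 and from 0.386 to 0.445 with MI+IgG, against 0.418 to 0.499 in Sham. MI+FG-3149 lay wholly below Sham, with a log2 difference of -0.27 (2-sided exact permutation test, p = 0.0179, the smallest that 5 against 3 allows). Adjusted over the 42 ratio comparisons this became 0.0536, so the ratio did not pass the threshold. At the smallest possible p, passing would need more of the 42 comparisons to reach so small a p. Missing the threshold therefore does not show that the ratio was unchanged. The log2 difference was -0.12 between MI+IgG and Sham (exact permutation p = 0.161) and -0.15 between MI+FG-3149 and MI+IgG (exact permutation p = 0.0397, adjusted 0.098).

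Most of the pump signal was SERCA2a, the isoform of 998 residues that predominates in heart. It took 96.7% to 97.0% of the Atp2a2 RPKM (a level per transcript length and library size) in the MI+FG-3149 hearts, 96.5% to 96.9% in the MI+IgG hearts and 95.7% to 96.6% in Sham. The RPKM of the SERCA2a transcript averaged 3366 ± 136 with MI+FG-3149 and 3114 ± 137 with MI+IgG (SD, n = 5 each), against 4352 ± 173 in Sham (SD, n = 3). It fell by 0.37 with MI+FG-3149 and by 0.48 with MI+IgG against Sham on the log2(RPKM + 0.1) scale (limma adjusted p = 0.000154 and 1.73e-05). Of all 15444 transcripts tested, limma called 24% and 21.6% in those comparisons, and 2.76% in MI+FG-3149 against MI+IgG.
SERCA2b, with 1044 residues, had RPKM of 57.9 ± 9.3 with MI+FG-3149 and 51.3 ± 7.8 with MI+IgG (SD, n = 5 each), against 47.97 ± 8.53 in Sham (SD, n = 3). It was not called in MI+FG-3149 (log2 0.27, limma adjusted p = 0.229) or MI+IgG (log2 0.10, limma adjusted p = 0.709) against Sham. A noncoding Atp2a2 transcript with an internal exon that contains the SERCA2b end stood at 53.5 ± 7.0 RPKM with MI+FG-3149 and 55.5 ± 9.2 with MI+IgG, against 120 ± 15 in Sham, and fell by 1.17 with MI+FG-3149 and by 1.12 with MI+IgG against Sham (limma adjusted p = 0.000165 and 0.000163). That internal exon overlaps the end exon of SERCA2b, and the files give each a value of its own. Summed, both exons had 139 CPM with MI+FG-3149 and 136 with MI+IgG, against 236 in Sham, which is 0.76 and 0.79 lower on the log2 scale than Sham. The separate SERCA2b level therefore rests on how reads of the shared bases were divided.

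**Figure D1:**
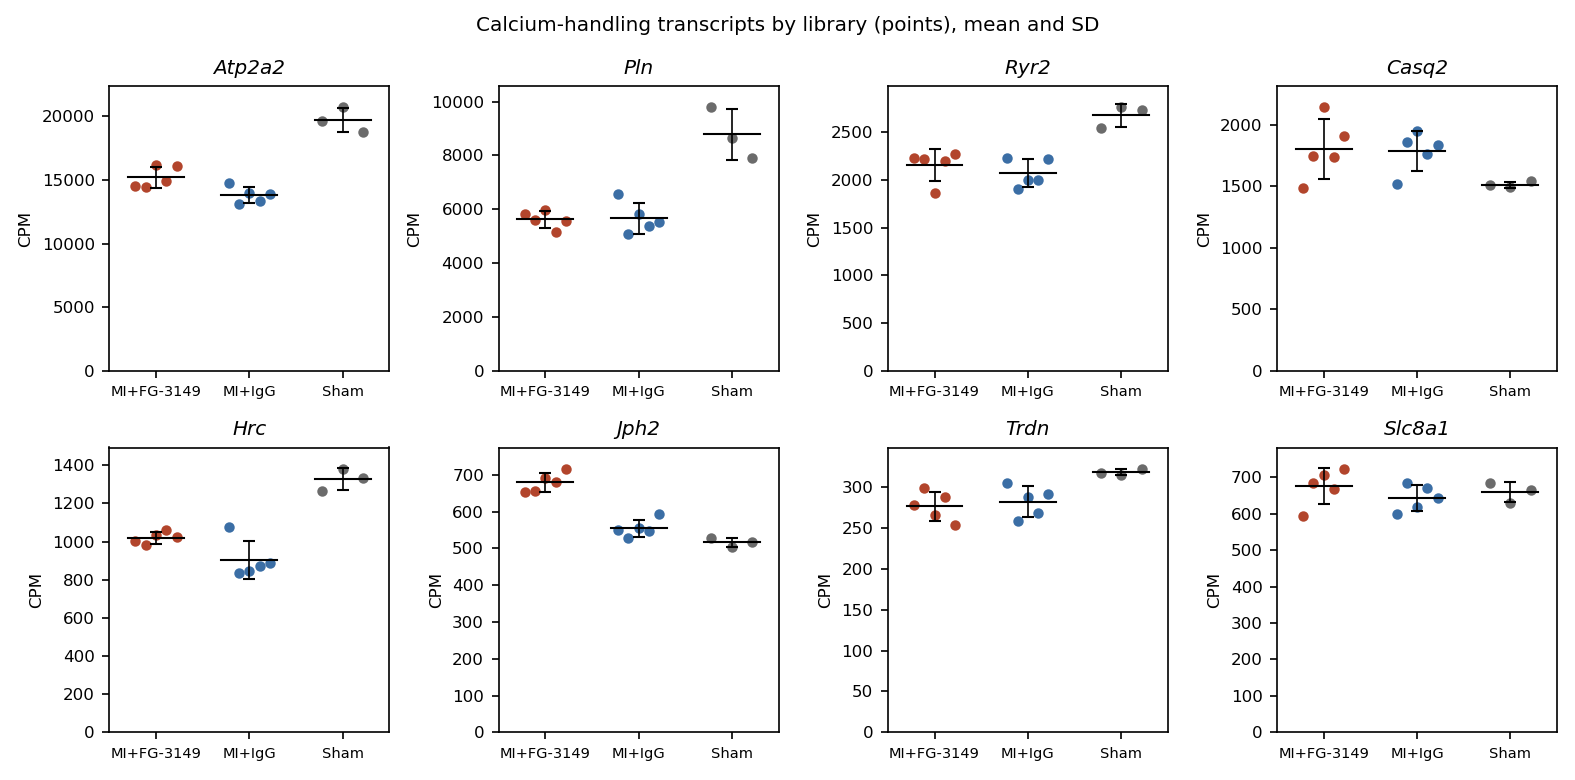
CPM of 8 calcium-handling genes in each library (points) with the mean (line) and SD (bar) of MI+FG-3149 (n = 5), MI+IgG (n = 5) and Sham (n = 3), on axes that start at 0. Atp2a2, Pln, Ryr2, Hrc and Trdn lie lower in every infarcted heart than in every sham heart, and Jph2 is the gene whose MI+FG-3149 points (653 to 717 CPM) all lie above the MI+IgG points (529 to 592 CPM).

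Sarcolipin, the pump inhibitor of atria and of many skeletal muscles, was near absent. Sln (chr9:53850251-53853849) had 0 counts in all 5 MI+FG-3149 libraries. With MI+IgG it had 9 counts in replicate 4, 30 in replicate 5 and 0 in the other 3, against 1 count in Sham replicate 3 and 0 in the other 2. A count of 0 allows a level of up to 0.229 to 0.279 CPM in the MI+FG-3149 libraries (3 counts per library, counting error only). Sln did not pass the filter on low counts and had no test. The same 2 MI+IgG libraries held Myl7, the atrial regulatory light chain, at 8.36 and 13.7 CPM, where the other 11 libraries had at most 0.273 CPM. They also held Myl4, the atrial essential light chain, at 21.5 and 30.6 CPM, against 1.22 to 3.40 CPM in the other 11. The atrial list of 5 genes ranged in sum from 1165 to 2788 CPM with MI+FG-3149 and from 1560 to 3544 CPM with MI+IgG, against 134.3 to 157.6 CPM in Sham. That sum is mostly Nppa, which infarcted ventricle also makes, at 1135 to 2760 CPM with MI+FG-3149, 1529 to 3522 CPM with MI+IgG and 98.6 to 121.9 CPM in Sham. Bmp10, an atrial growth factor, was at 0 in 11 of the 13 libraries. Kcnj3, also on that list, was not raised in MI+IgG replicates 4 and 5. It had 21.73 and 22.65 CPM there, against 19.75 to 28.73 CPM in the other MI+IgG libraries. Its level was 22.03 to 29.75 CPM with MI+FG-3149 and 32.3 to 36.76 CPM in Sham. The part of atrial transcripts in the Sln counts was not tested.

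The ryanodine receptor was lower after infarction with either antibody. Ryr2, the release channel (chr13:11553103-12106945, minus strand), had 2226, 2216, 1862, 2194 and 2275 CPM with MI+FG-3149. It had 2229, 1908, 2001, 1995 and 2222 CPM with MI+IgG, against 2539, 2761 and 2728 CPM in Sham. The infarcted and sham hearts did not overlap, and MI+FG-3149 replicate 3 was the lowest of all. Ryr2 fell by 0.37 ± 0.07 (SE, log2) in MI+IgG against Sham (edgeR adjusted p = 0.00043) and by 0.31 ± 0.07 in MI+FG-3149 against Sham (edgeR adjusted p = 0.00233). For MI+FG-3149 against MI+IgG the log2 fold change was 0.06, with a 95% interval of -0.06 to 0.17. The fall was uneven along the gene, where 103 exons had a mean of at least 20 counts and were divided into equal stretches after their values had been seen. Over exons 1 to 35 the median log2 ratio to Sham was 0.03 with MI+FG-3149 and -0.04 with MI+IgG, over exons 36 to 70 it was -0.24 and -0.26, and over exons 71 to 105 it was -0.37 and -0.45 in the same groups. In MI+FG-3149 41 exons lay lower in every heart than in every sham heart, of which 1 was among exons 1 to 35, and in MI+IgG 46 did, all from exon 46 on. The share of such exons over all genes is not given here, so these counts are not read as more than that share. The terminal exon alone fell by 0.56 in MI+FG-3149 (edgeR adjusted p = 0.000218) and by 0.67 in MI+IgG (edgeR adjusted p = 2.28e-05) against Sham. Beside this stands the median position of reads along 3026 genes, from 0 at the 5′ end to 1 at the 3′ end. That position was 0.517 to 0.528 with MI+FG-3149 and 0.526 to 0.536 with MI+IgG, against 0.542 to 0.547 in Sham. Its part in the Ryr2 and Atp2a2 results was not tested. Exon 1, which is 75.3% G or C, was among the 2 exons that lay higher with MI+FG-3149 than in Sham.

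Of the luminal calcium binders, Hrc was lower after infarction, while Casq2 was not called against Sham in the main fit. Hrc, a low-affinity calcium binder of the SR lumen that also binds triadin (chr7:45335269-45338972, plus strand), had 1001, 980.4, 1032, 1059 and 1026 CPM with MI+FG-3149. It had 1074, 833, 847, 871 and 889.9 CPM with MI+IgG, against 1266, 1382 and 1333 CPM in Sham. All infarcted hearts were below all sham hearts, and MI+IgG replicate 1 stood above the other 4 of its group. Hrc fell by 0.56 ± 0.07 (SE, log2) in MI+IgG against Sham (edgeR adjusted p = 9.42e-06) and by 0.38 ± 0.07 in MI+FG-3149 against Sham (edgeR adjusted p = 0.000528). All 6 Hrc exons were lower in every infarcted heart than in every sham heart. Between MI+FG-3149 and MI+IgG the log2 fold change of 0.18, with a 95% interval of 0.06 to 0.29, was not called (edgeR adjusted p = 0.183), and without MI+IgG replicate 1 it was 0.25 and called (edgeR adjusted p = 0.00802).
Casq2, the cardiac calsequestrin (chr3:102086455-102146512, plus strand), had 1487 to 2145 CPM with MI+FG-3149 and 1522 to 1952 CPM with MI+IgG, against 1494 to 1542 CPM in Sham. The ranges overlapped in every pair of groups, although 4 of 5 hearts in each infarcted group lay above all sham hearts. The log2 fold change was 0.25 for MI+FG-3149 against Sham (edgeR adjusted p = 0.0541) and 0.24 for MI+IgG against Sham (edgeR adjusted p = 0.0611), neither of which passed the threshold. Some alternatives passed it. Without MI+FG-3149 replicate 1 Casq2 rose by 0.32 against Sham (edgeR adjusted p = 0.00843), and without MI+IgG replicate 1 by 0.29 (edgeR adjusted p = 0.0141). With the GC trend removed the value was 0.28 in MI+FG-3149 (edgeR adjusted p = 0.0456) and 0.25 in MI+IgG (edgeR adjusted p = 0.0584). Casq2 also passed in MI+FG-3149 against Sham by DESeq2 (adjusted p = 0.0376), with upper-quartile factors (edgeR adjusted p = 0.0497) and on its terminal exon (edgeR adjusted p = 0.0326). It passed in MI+IgG against Sham with these groups alone in the fit (edgeR adjusted p = 0.0161) and by limma on gene RPKM after a filter on low values (adjusted p = 0.0438, and 0.138 without the filter). When RPKM were tested by transcript, Casq2 did not pass in MI+IgG or MI+FG-3149 against Sham (limma adjusted p = 0.0791 and 0.0972). It did not pass without any 1 of the sham libraries (edgeR adjusted p = 0.101 to 0.154).

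Casq1, the skeletal muscle calsequestrin, was scarce, with 15.0, 13.4, 13.6, 9.39 and 13.9 CPM in MI+FG-3149 hearts (chr1:172209894-172219895, minus strand). Its level was 15.6, 13.4, 9.17, 24.8 and 23.03 CPM with MI+IgG, against 7.71, 9.61 and 9.61 CPM in Sham. The highest values were those of MI+IgG replicates 4 and 5, the libraries with atrial light chains, and both infarcted groups reached into the sham range. Casq1 rose by 0.93 ± 0.30 (SE, log2) in MI+IgG against Sham (edgeR adjusted p = 0.0337). Without MI+IgG replicate 4 the log2 fold change was 0.75 (edgeR adjusted p = 0.0537), without replicate 5 it was 0.81 (edgeR adjusted p = 0.0632), and without both it was 0.49 (edgeR adjusted p = 0.0678). Leaving out any 1 sham library also ended the call (log2 0.83 to 0.98). In MI+FG-3149 against Sham the log2 fold change was 0.54 (edgeR adjusted p = 0.213), and in MI+FG-3149 against MI+IgG it was -0.39 (edgeR adjusted p = 0.537). The fast skeletal muscle list of 10 genes, in sum, had 3.33 to 4.55 CPM with MI+FG-3149 and 2.65 to 3.46 CPM with MI+IgG, against 4.06 to 5.16 CPM in Sham. The part of atrial transcripts in the Casq1 values was not tested.

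**Figure D2:**
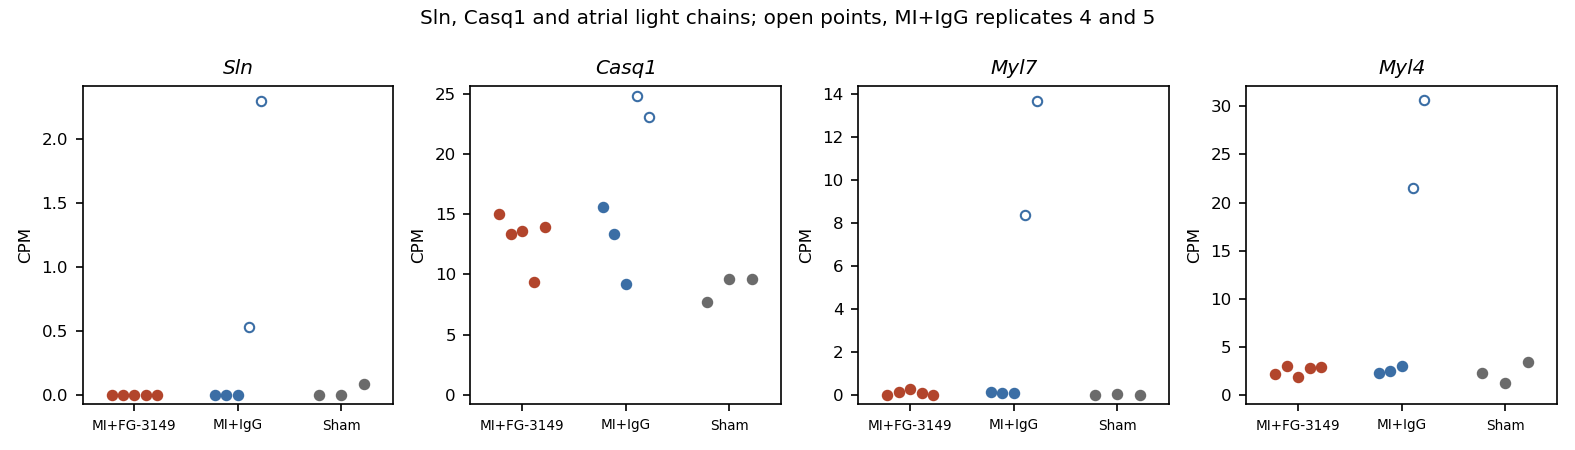
CPM of Sln, Casq1, Myl7 and Myl4 in each library of MI+FG-3149, MI+IgG and Sham. The open points are MI+IgG replicates 4 and 5, which hold the highest value of each gene: 0.53 and 2.30 CPM for Sln, 24.8 and 23.03 for Casq1, 8.36 and 13.7 for Myl7, and 21.5 and 30.6 for Myl4.

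Of the junctional proteins, triadin was slightly lower after infarction. Trdn, which anchors calsequestrin to the ryanodine receptor (chr10:33083483-33476709, plus strand), had 253 to 298 CPM with MI+FG-3149 and 258 to 305 CPM with MI+IgG, against 314 to 322 CPM in Sham. The infarcted and sham hearts did not overlap. Trdn fell by 0.20 ± 0.06 (SE, log2) in MI+FG-3149 against Sham (edgeR adjusted p = 0.0187) and by 0.17 ± 0.06 in MI+IgG against Sham (edgeR adjusted p = 0.0361). Its gene is 36.8% G or C, and once the trend of each library with gene GC content was removed the log2 values were -0.01 and -0.04 (edgeR adjusted p = 0.892 and 0.637). Leaving out any 1 sham library ended the call in MI+IgG (log2 -0.18 to -0.16), as did leaving out MI+IgG replicate 2 or 4, and sham replicate 1 or 3 did so in MI+FG-3149 (log2 -0.21 and -0.19). Counted on the terminal exon alone, Trdn fell by 0.49 in MI+FG-3149 (edgeR adjusted p = 0.00338) and by 0.34 in MI+IgG (edgeR adjusted p = 0.0284). Per base the terminal exon is thinly covered, with a mean of 533 counts over 2331 bases, against 593 over the 177 bases of exon 8. How far it stands for the whole gene was not tested. Of 17 exons with a mean of at least 20 counts, 13 overlapped Sham in MI+FG-3149 and 14 in MI+IgG. When RPKM were tested by transcript, Trdn was called against Sham in MI+FG-3149 (limma adjusted p = 0.0151) but not in MI+IgG (limma adjusted p = 0.065).

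Jph2 was the only member called between the antibodies. It encodes junctophilin-2, which tethers the SR to the transverse tubules (chr2:163336242-163397993, minus strand). Its level was 653, 656, 692, 679.7 and 717 CPM with MI+FG-3149. It was 549.9, 529, 554, 547 and 592 CPM with MI+IgG, against 529, 505 and 518 CPM in Sham. Every MI+FG-3149 heart lay above every heart of the other groups, and MI+IgG overlapped Sham. Jph2 rose by 0.29 ± 0.04 (SE, log2) in MI+FG-3149 against MI+IgG (edgeR adjusted p = 0.00251) and by 0.39 ± 0.05 in MI+FG-3149 against Sham (edgeR adjusted p = 3.41e-05). In MI+IgG against Sham its log2 fold change was 0.10 (edgeR adjusted p = 0.138).

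The exons of Jph2 did not share this difference. Its terminal exon, exon 8, had 294 to 326 CPM with MI+FG-3149 and 291 to 327 CPM with MI+IgG, against 307 to 316 CPM in Sham. Exon 6, the exon of the 240 bases printed above, is 73.0% G or C and had 80.8 to 116 CPM with MI+FG-3149 and 34.8 to 46.5 CPM with MI+IgG, against 28.9 to 36.7 CPM in Sham. The 3 groups overlapped in the terminal exon, while exon 6 separated MI+FG-3149 from MI+IgG by 1.28 on the log2 scale. Exon 4, at 67.9% G or C, gave a log2 ratio of 0.87, exon 5, at 60.5%, gave 0.68, and exon 7, at 50.5%, gave 0.29, each without overlap of MI+FG-3149 and MI+IgG. Exons 2 and 3 are overlapping versions of the 5′ exon and together gave 0.13. When the terminal exon was counted in place of the gene, Jph2 had a log2 fold change of 0.05 in MI+FG-3149 against MI+IgG (edgeR adjusted p = 0.786) and 0.11 against Sham (edgeR adjusted p = 0.166). When the other exons were counted, it rose by 0.57 against MI+IgG (edgeR adjusted p = 1.03e-05) and by 0.73 against Sham (edgeR adjusted p = 7.75e-07).

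**Figure D3:**
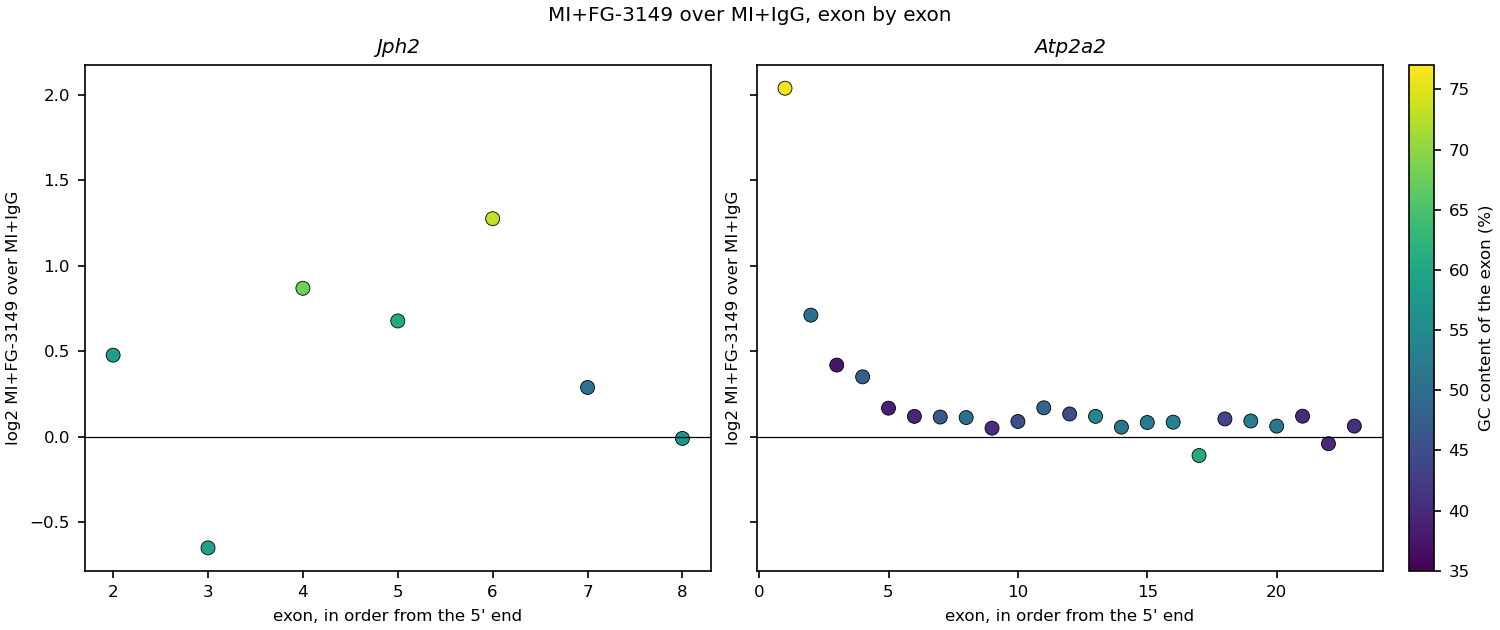
Log2 ratio of mean exon levels, MI+FG-3149 over MI+IgG, for each exon of Jph2 and Atp2a2 with a mean of at least 20 counts, in order from the 5′ end and coloured by GC content. The highest points are the most GC-rich exons, exon 6 of Jph2 (log2 1.28) and exon 1 of Atp2a2 (log2 2.04), while the terminal exon of Jph2 lies at -0.01.

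Exons rich in G and C differed between the groups across the whole table. Over 666 exons above 70% GC the median log2 ratio of MI+FG-3149 to MI+IgG was 1.36, and over 1330 exons of 65% to 70% it was 0.43, whereas it was -0.02 over 14097 exons of 50% to 55%. Against Sham the median above 70% GC was 1.88 with MI+FG-3149 and 0.51 with MI+IgG. Over 1078 exons of at most 35% GC it was -0.30 and -0.17 in the same groups. The exons above 70% GC took 0.554% to 0.754% of exon reads in MI+FG-3149 libraries and 0.214% to 0.347% in MI+IgG libraries, against 0.175% to 0.228% in Sham libraries. Every MI+FG-3149 library was thus above every library of the other groups. Among the members, 4 exons of at least 20 counts exceeded 65% GC: exon 1 of Atp2a2, exon 1 of Ryr2 and exons 4 and 6 of Jph2, and in all of them every MI+FG-3149 heart lay above every MI+IgG heart. Exon 1 of Atp2a2, at 76.1% GC, had 357 to 610 CPM with MI+FG-3149 and 91.2 to 174 CPM with MI+IgG, against 101 to 128 CPM in Sham. Exons 2 to 4 of Atp2a2, at most 50% GC, were also higher in every MI+FG-3149 heart than in every MI+IgG heart (log2 0.35 to 0.71). So was exon 1 of Pln, at 50.9% GC, by 1.46 on the log2 scale, which is more than the 1.28 of exon 6 of Jph2. At 61.8% GC, Jph2 lay at percentile 98.4 of the genes tested, whose median was 49.7%. With the GC trend of each library removed its log2 fold change was 0.18 in MI+FG-3149 against MI+IgG (edgeR adjusted p = 0.0604) and 0.18 against Sham (edgeR adjusted p = 0.0167). Pln, at 38.6% GC, then fell against Sham by 0.48 in MI+FG-3149 and by 0.52 in MI+IgG (edgeR adjusted p = 5.75e-05 and 1.38e-05). Without that removal it fell by 0.64 and 0.63. The antibody and the share of reads in GC-rich exons cannot be told apart, since every MI+FG-3149 library is above every other library in that share.

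**Figure D4:**
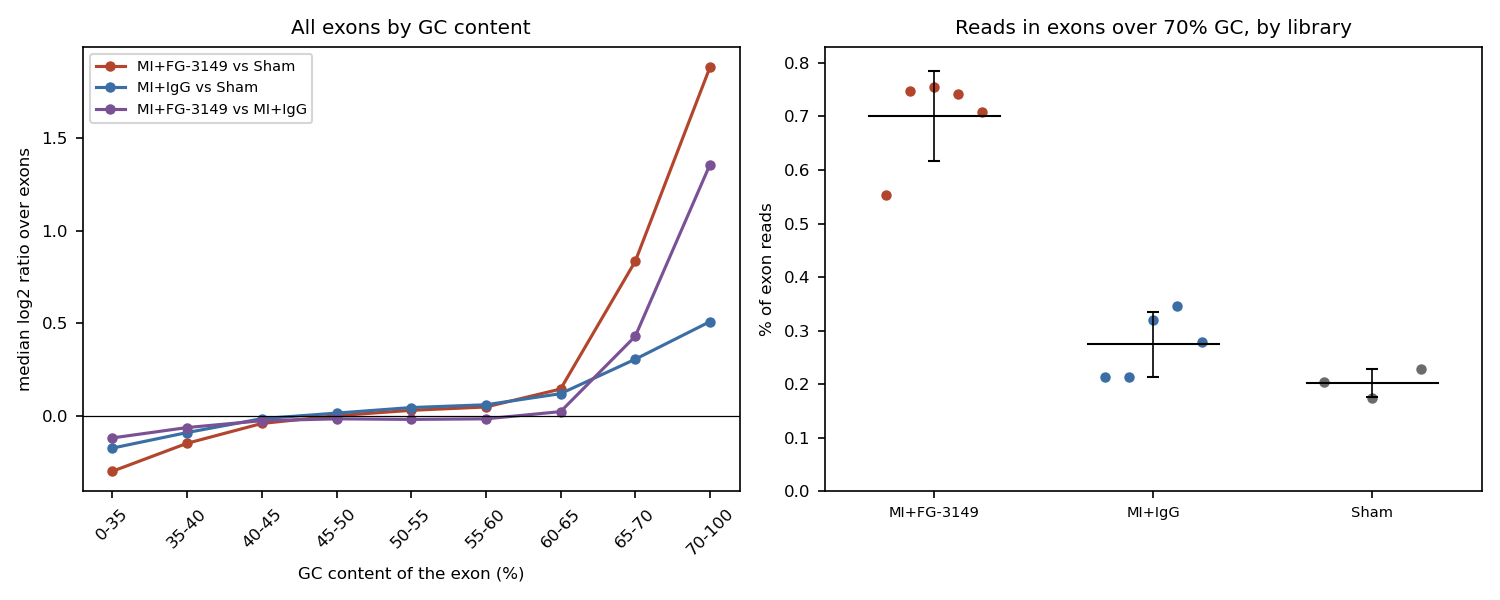
Left, median log2 ratio over all exons in classes of GC content (at least 20 counts on average) for the 3 comparisons. Right, percent of exon reads in exons above 70% GC for each library, with mean and SD; the MI+FG-3149 libraries (0.554% to 0.754%) lie above those of MI+IgG (0.214% to 0.347%) and Sham (0.175% to 0.228%).

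The deposited RPKM values of Jph2 are split over 2 transcripts of the same 696 residues that differ at the 5′ end. Their shares were 49.9% to 50.1% in all 3 Sham libraries and 49.7% to 50.3% in MI+IgG replicates 1 and 2. With an even split in these 5 libraries, the shares were not read as levels.

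The sodium-calcium exchanger was not called in any of the 3 comparisons. Slc8a1, which exports calcium across the surface membrane (chr17:81373105-81738377, minus strand), had 595 to 723 CPM with MI+FG-3149 and 600 to 685 CPM with MI+IgG, against 629 to 683 CPM in Sham, and the 3 groups overlapped. Its log2 fold change was 0.04 in MI+FG-3149 against Sham (95% interval -0.09 to 0.16), -0.03 in MI+IgG against Sham (-0.16 to 0.09) and 0.07 in MI+FG-3149 against MI+IgG (-0.04 to 0.18). Set against the pump, the ratio of Slc8a1 to Atp2a2 counts ran from 0.0408 to 0.0474 with MI+FG-3149 and from 0.0406 to 0.0521 with MI+IgG, against 0.0303 to 0.0353 in Sham. Neither infarcted group overlapped Sham, with log2 differences of 0.40 for MI+FG-3149 and 0.48 for MI+IgG (2-sided exact permutation test, p = 0.0179 each, adjusted p = 0.0536 over the 42 ratio comparisons, 0 of which passed the threshold). Since 0.0179 is the smallest p that 5 against 3 allows, missing the threshold does not show that the ratio was unchanged.

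In all, 9 of the 10 members passed the filter on low counts. In MI+IgG against Sham 5 fell (Atp2a2, Pln, Ryr2, Trdn and Hrc) and 1 rose (Casq1), where 33.7% of the 13434 genes tested were called (15.9% lower, 17.8% higher). In MI+FG-3149 against Sham 5 fell, the same genes, and 1 rose (Jph2), where 29.5% of all genes were called (13.9% lower, 15.6% higher). In MI+FG-3149 against MI+IgG 1 rose (Jph2) and 0 fell, where 1.07% of all genes were called (0.156% lower, 0.916% higher). The comparisons with Sham share the sham hearts. The median log2 fold change of the 9 was -0.20, -0.17 and 0.06 in MI+FG-3149 against Sham, MI+IgG against Sham and MI+FG-3149 against MI+IgG, beside medians of 0.00, 0.00 and -0.01 over all genes.

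**Figure D5:**
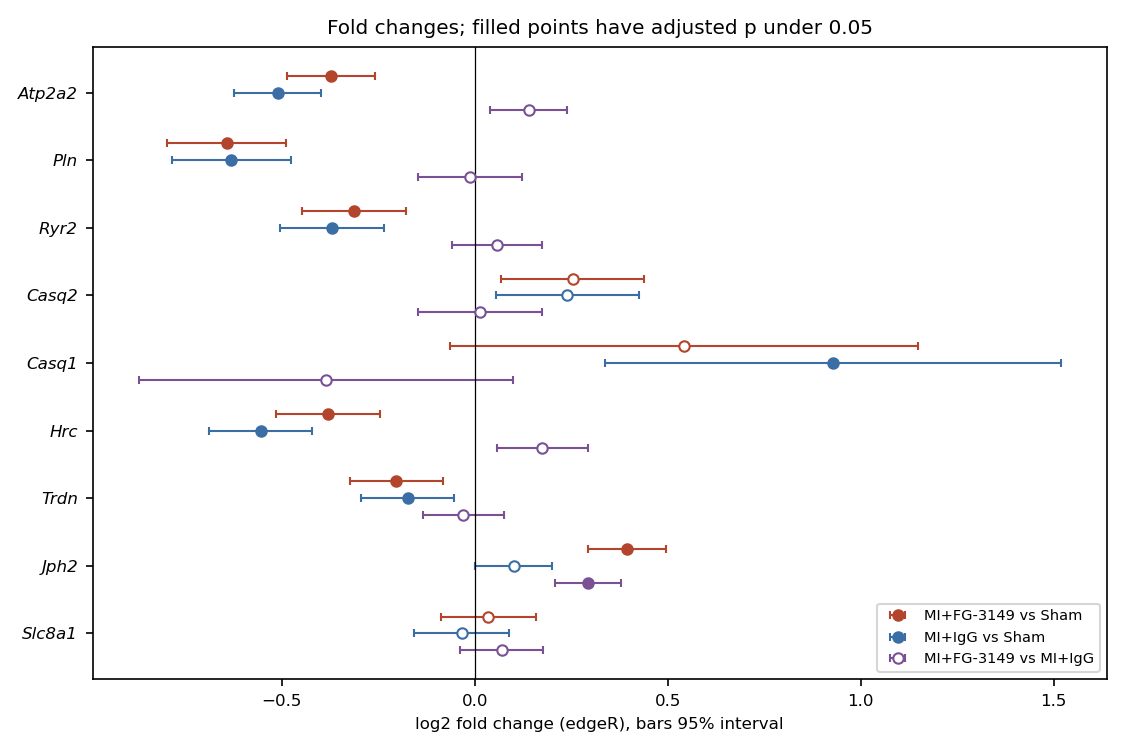
Log2 fold change of 9 members from edgeR with an approximate 95% interval in MI+FG-3149 against Sham, MI+IgG against Sham and MI+FG-3149 against MI+IgG. Filled points have an adjusted p under 0.05. Atp2a2, Pln, Ryr2, Hrc and Trdn lie left of 0 in both comparisons with Sham, and Jph2 has the only filled point between the antibodies (0.29).

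Per length, the order of levels in Sham began with Atp2a2 at 4520 ± 179 RPKM and Pln at 3712 ± 421 RPKM, ahead of Casq2 at 602 ± 15 and Hrc at 545 ± 18 (SD, n = 3). Next came Ryr2 at 159 ± 6, Jph2 at 123 ± 4, Trdn at 64.6 ± 1.1, Slc8a1 at 35.4 ± 1.9 and Casq1 at 4.78 ± 0.55 RPKM, and no neighbours among these 9 overlapped. Sln was last, at 0 to 0.16 RPKM. In MI+FG-3149 hearts Jph2 (154 to 167 RPKM) stood above Ryr2 (107 to 135 RPKM), in MI+IgG hearts they overlapped (128 to 140 RPKM for Jph2 and 115 to 135 RPKM for Ryr2), and in Sham Ryr2 (152 to 163 RPKM) stood above Jph2 (119 to 127 RPKM). The Jph2 levels here include the GC-rich exons. RPKM divide by the annotated transcript length, so the order rests on that length too. The terminal exon of Slc8a1 had a mean of 5578 counts over 15963 bases, where its exon 2 had 2280 over 1830 bases.

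Beyond the members, 83 further genes of calcium cycling in 6 lists were tested. In MI+FG-3149 against Sham 10 rose and 18 fell, in MI+IgG against Sham 14 rose and 21 fell, and in MI+FG-3149 against MI+IgG 0 were called by edgeR, with 13 at an unadjusted p under 0.05. The median log2 fold change of the 83 was -0.02, -0.06 and 0.01 in those comparisons. Over all 13434 genes tested, 15.6% rose and 13.9% fell in MI+FG-3149 against Sham, and 17.8% rose and 15.9% fell in MI+IgG against Sham. In MI+FG-3149 against MI+IgG 1.07% of all genes were called, and 1849 had an unadjusted p under 0.05. The counts of each list below stand beside the same shares. Among 15 pump genes and pump regulators, 1 rose and 3 fell in MI+FG-3149, and 2 rose and 4 fell in MI+IgG, against Sham. Camk2d, the main cardiac calcium/calmodulin kinase, which phosphorylates phospholamban and the ryanodine receptor, fell by 0.30 in MI+FG-3149 and by 0.37 in MI+IgG on the log2 scale (edgeR adjusted p = 0.00253 and 0.000319). Prkar1a, a regulatory subunit of protein kinase A, rose by 0.61 in both (edgeR adjusted p = 0.000936 and 0.000638). Ppp1cb, a catalytic subunit of protein phosphatase 1, fell by 0.39 in MI+FG-3149 and by 0.32 in MI+IgG (edgeR adjusted p = 0.000668 and 0.00258).

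Among 16 release channel partners, 2 rose and 2 fell in MI+FG-3149, and 2 rose and 3 fell in MI+IgG, against Sham. Fkbp1a, the binding protein FKBP12, rose by 0.22 in MI+FG-3149 and by 0.16 in MI+IgG (edgeR adjusted p = 0.00789 and 0.0408), and Camk2g fell by 0.24 in MI+FG-3149 and by 0.25 in MI+IgG (edgeR adjusted p = 0.00346 and 0.0017). Among 13 genes of the junction, the transverse tubule and SR structure, 3 rose and 3 fell in MI+FG-3149, and 2 rose and 5 fell in MI+IgG. Bin1, which shapes transverse tubules, rose by 0.42 in MI+FG-3149 and by 0.47 in MI+IgG (edgeR adjusted p = 0.00478 and 0.0015), and Lrrc10 rose by 0.86 in MI+FG-3149 and by 0.89 in MI+IgG (edgeR adjusted p = 0.000355 and 0.000179). Asph, whose locus encodes junctin beside aspartyl hydroxylase, fell by 0.21 in MI+FG-3149 and by 0.23 in MI+IgG (edgeR adjusted p = 0.00493 and 0.00183).

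Among 12 genes of the SR and ER lumen, 2 rose and 5 fell in MI+FG-3149, and 3 rose and 3 fell in MI+IgG, against Sham. The chaperones Canx and Hspa5 fell by 0.44 and 0.45 in MI+FG-3149 and by 0.45 and 0.48 in MI+IgG (edgeR adjusted p from 1.54e-05 to 0.0016). Rcn3, a reticulocalbin of the secretory pathway, rose by 0.82 in MI+FG-3149 and by 1.00 in MI+IgG (edgeR adjusted p = 0.00014 and 1.18e-05). The fibroblast sum was higher in the same hearts, and the part of fibroblasts in the Rcn3 rise was not tested. Among 17 genes of calcium entry and exchange at the surface membrane, 0 rose and 3 fell in MI+FG-3149, and 2 rose and 2 fell in MI+IgG. Among 10 mitochondrial calcium genes, 2 rose and 2 fell in MI+FG-3149, and 3 rose and 4 fell in MI+IgG. Vdac3, an outer membrane channel, fell by 0.29 in MI+FG-3149 and by 0.32 in MI+IgG (edgeR adjusted p = 0.00131 and 0.000455).

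RefSeq promoter windows of 300 bases were at hand for 7 of the 10 members (Casq1, Casq2, Hrc, Jph2, Pln, Ryr2 and Slc8a1). On either strand, CANNTG occurred in all 7 (72.3% of all 32851 windows), GATAAG in Pln and Slc8a1 (7.4%), TATAAA in Pln (13.6%), a MEF2 motif in Casq2 (3.2%) and a CArG box in 0 (1.6%).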

How the data were processed

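Gene and exon values are estimated counts as the authors deposited them, transcript values are RPKM deposited by the authors, and the build is mm10, per the submitters' processing notes. The aligner and counter, the strand setting and the treatment of shared reads are not given in the sources used here, so values of overlapping transcripts are uncertain. A share of 79.4% of nonzero count values came within 0.01 of whole numbers. Counts were rounded, 379 rows repeating a symbol were left out, and genes were kept by filterByExpr.

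All 13 libraries were fitted together in edgeR 4.0.16 (R 4.3.3) with TMM factors, quasi-likelihood tests and Benjamini-Hochberg adjustment over 13434 genes, with calls at an adjusted p under 0.05. Replicates are libraries that the titles number within a group. The labels do not say that each is a separate animal, so p-values measure the spread between these libraries, which may be technical. CPM are counts scaled to library totals and TMM factors. RPKM were tested with limma 3.58.1 on log2(RPKM + 0.1), for transcripts with a mean of at least 0.5. Ratios and transcript shares were compared by exact permutation tests on |difference of means|, with a count of 0.5 added for ratios. Exon levels were not tested. Exons of a gene share reads and libraries and are not replicates. The share of all exons that separate the groups without overlap is not given here. Exon and gene GC content was read from GENCODE M21 on GRCm38, the assembly that mm10 names, and 99.2% of the exons used had a value.

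The members and lists were chosen with earlier results of these data known. The text names all members, and of each list a part of the up to 4 genes with the smallest p in each comparison; some are not reported here. The alternatives were DESeq2 1.42.0, limma voom, upper-quartile factors, no filter, RPKM, fits of the groups compared alone, the replicate number as a block and leaving out each library. The removal of the GC trend, the counts of terminal or other exons, and leaving out MI+IgG replicates 4 and 5 together were chosen after seeing the data. The methods were tested on simulated data with known changes.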

Additional observations from a re-analysis of the deposited data

Results flagged for a closer look

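Of 37 groups of 5 libraries tested for a sample far from the others, 4 held one, and chance gives about 1 in 20. Where a gene has a pair of transcripts, whose shares sum to the whole, 1 of the pair was counted. MI+IgG replicate 5 had 2.30 CPM of Sln, against 0 to 0.53 in the other MI+IgG libraries. MI+FG-3149 replicate 3 had 1862 CPM of Ryr2, against 2194 to 2275 in the other MI+FG-3149 libraries. MI+IgG replicate 1 had 1074 CPM of Hrc, against 833.2 to 889.9 in the other MI+IgG libraries. MI+IgG replicate 5 had 7.58% of its Pln RPKM in the longer transcript, of 2480 bases, against 9.90% to 10.4% in the other MI+IgG libraries.

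The change of Jph2 against Sham differed between MI+FG-3149 and MI+IgG, with a log2 difference of 0.29 in the contrast of the antibodies (edgeR adjusted p = 0.00251). The terminal exon of Jph2 gave 0.05 in the same contrast (edgeR adjusted p = 0.786).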

How the results depend on the processing

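Atp2a2, Pln, Ryr2 and Hrc kept their direction and their calls against Sham in both infarcted groups under every alternative run, except Pln when exons other than its terminal one were counted. There its log2 fold change was 0.78 in MI+FG-3149 against Sham, 1.21 in MI+FG-3149 against MI+IgG and -0.43 (not called) in MI+IgG against Sham. The number of members that rose in MI+IgG against Sham, 1 in the fit above, was 0 by limma voom, without a filter, with other exons and without MI+IgG replicates 4 and 5 together, 2 with RPKM at either pseudocount, and 0 to 2 when a library was left out. In MI+FG-3149 against Sham it was 2 in place of 1 by DESeq2, with upper-quartile factors, with these groups alone, with the GC trend removed and with other exons, and 1 to 2 with a library left out. In MI+FG-3149 against MI+IgG it was 0 with the GC trend removed or the terminal exon counted, 2 with other exons, and 1 to 2 with a library left out (2 without MI+IgG replicate 1). Of the wider lists, 9 genes rose in MI+IgG against Sham with terminal exons and 5 in MI+FG-3149 against MI+IgG with other exons. With terminal exons 28.4% of all 12385 genes tested were called in either direction in MI+IgG against Sham. With other exons 4.97% of all 11521 genes tested were called in MI+FG-3149 against MI+IgG, where the main fit called 1.07%. No member transcript rose in MI+IgG against Sham without a filter (0). The causes of these shifts were not tested.

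Libraries with the same replicate number shared only a number: of 11 such pairs 2 had a correlation of deviations above 0.1 (range -0.04 to 0.18). With the replicate number as a block, 2 members rose and 4 fell in MI+FG-3149 against Sham, 1 rose and 4 fell in MI+IgG against Sham, and 1 rose in MI+FG-3149 against MI+IgG. Under the block Casq2 gained a call (edgeR adjusted p = 0.031 in MI+FG-3149 and 0.0332 in MI+IgG), Casq1 lost its call in MI+IgG (0.169), and Trdn lost its calls (0.0517 in MI+FG-3149 and 0.0879 in MI+IgG). Depth limits Sln, and Casq1 with 97 to 421 counts per library.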
